A study of Mus musculus with 7 samples.

Results

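Cortical projection neurons of the deep and the upper layers are told apart by small sets of transcription factors, and 9 of these were followed here across RNA-seq libraries of sorted mouse neocortical cells. The 9 were picked by gene symbol, as factors known for layer identity, out of 38124 genes in the count table, and all 9 passed the filter on low counts. Those of the deep layers were *Tbr1*, *Bcl11b*, *Fezf2* and *Tle4*. Those of the upper layers were *Cux1*, *Cux2*, *Pou3f2*, *Pou3f3* and *Rorb*.

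All 7 libraries came from heterozygous Tis21-CreERT2 mouse embryos that had received tamoxifen. Their neocortex was electroporated in utero at E13.5 with an RFP-expressing control construct (3 libraries, numbered 1, 2 and 4) or with the conditional Sox9 construct (4 libraries, numbered 1 to 4), and brightly RFP-positive cells were sorted 48 hr later, at E15.5. Tis21 is active in progenitors that are about to produce basal progenitors or neurons, so RFP marked such cells together with their progeny, and cortices of embryos from several mothers were pooled for a sort. The comparison asks how the transcriptome of these cells differed between the constructs.

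In the developing neocortex, deep-layer neurons are born before upper-layer neurons, and the factors that set their fates restrain one another. Fezf2 and Bcl11b (Ctip2) promote the subcerebral projection neurons of layer 5, Tbr1 the corticothalamic neurons of layer 6, and the corepressor Tle4 is enriched in those same layer 6 cells. Cux1, Cux2, and the POU factors Pou3f2 (Brn2) and Pou3f3 (Brn1) mark neurons destined for the upper layers and are already present in part of their progenitors, whereas Rorb is best known for layer 4.

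Total counts were between 10465562 and 12907778 in the control and between 4429704 and 10520214 in the Sox9 libraries. The targeted gene did not follow the labels, with *Sox9* at 34.6, 89.2 and 67.9 CPM (counts scaled to the library size) in the controls and at 50.8, 41.1, 31.0 and 37.1 CPM in the libraries labelled Sox9 (log2 fold change -0.68, adjusted p = 0.0493 in edgeR's quasi-likelihood test with Benjamini-Hochberg adjustment). That value was -0.37 without control 2 (adjusted p = 0.289), -0.99 without control 1 (adjusted p = 0.00281) and -0.38 with cyclic loess scaling and limma-trend (adjusted p = 0.393). Throughout, the term Sox9 libraries means those labelled Sox9, and every direction given rests on the labels. In these libraries *Olig2*, an oligodendrocyte lineage factor, was called higher, at 0.567 to 3.3 CPM against 0 to 0.174 CPM in the controls, a call lost with cyclic loess scaling (adjusted p = 0.276 with limma-trend and 0.0763 with edgeR) and without control 1 or 4. *Eomes* (Tbr2) was called lower (log2 fold change -2.25), with both forms of loess scaling and without any single library as well. The cells are labelled as neural progenitors, and markers of neurons and of progenitors were both found. The neuronal tubulin *Tubb3* was between 6015.6 and 8027 CPM and the progenitor factor *Sox2* between 2.77 and 10.9 CPM. *Tubb3* is among the highest of the pan-neuronal genes listed and *Sox2* among the lowest of the radial glia genes. Over the libraries, the sums were 20073.2 to 31586.7 CPM for 17 pan-neuronal genes and 317 to 1289.8 CPM for 10 radial glia genes. In bulk samples, fewer cells of a type and less RNA per cell cannot be told apart.

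Of the 9 layer factors, 2 were called lower in the Sox9 libraries at an adjusted p under 0.01, *Pou3f2* and *Cux2*, both of the upper layers. None was called higher, by edgeR, by DESeq2 or at an unadjusted p under 0.05, where the count was also 0. In the lower direction that looser threshold was passed by 4 factors, these 2 with *Cux1* and the deep-layer factor *Tbr1*. DESeq2 had the same 4 lower at an adjusted threshold of 0.05. With either form of cyclic loess scaling, described below, the unadjusted count was 2. Over the protein-coding genes tested, the call at 0.01 was reached by 3.88% in the lower direction and by 9.96% in the higher, together 13.8%. Among the strongly expressed ones, with an average log2 CPM above 6 like 6 of the factors, it was 8.06% lower and 0.544% higher, together 8.61%. The median log2 fold change of those strongly expressed genes was itself -0.26, against 0.0974 for the remaining protein-coding genes, so the values of the factors are to be read against a general shift with expression level. Both calls were lost when this shift was removed by cyclic loess scaling, which brought the median of the strongly expressed genes to -0.0174. Then *Pou3f2* stood at -0.62 (adjusted p = 0.0203, limma-trend) and *Cux2* at -0.56 (adjusted p = 0.0495). With limma-trend on the TMM scaling both calls were kept (adjusted p = 0.000962 and 0.00395), and with the loess shift as offsets in edgeR both were lost (adjusted p = 0.021 and 0.0403), so the loss went with the scaling and not with the change of test. They were lost as well with limma-trend on log2(FPKM + 0.1), at -0.66 (adjusted p = 0.0586) for *Pou3f2* and -0.56 (adjusted p = 0.13) for *Cux2* on that scale.

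**Figure D1:**
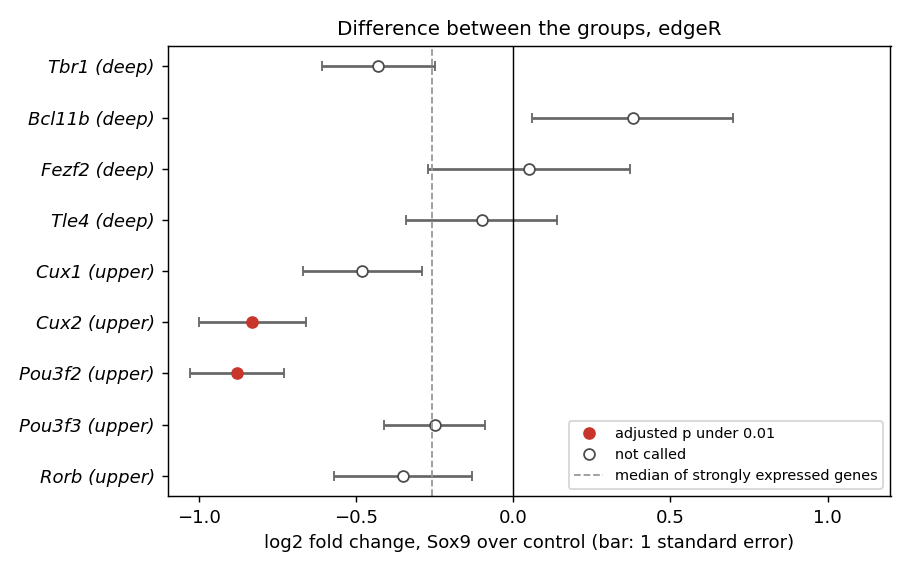
Log2 fold change (x axis, Sox9 over control) of each layer factor (y axis) with 1 standard error as the bar, filled where the adjusted p was under 0.01, and the median of the strongly expressed protein-coding genes as a dashed line. The upper-layer factors lie between -0.25 and -0.88, and of the deep-layer factors *Tbr1* is at -0.43 and *Bcl11b* at 0.38.

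Among the upper-layer factors, *Pou3f2* had the largest log2 fold change, -0.88 against -0.83 for *Cux2*. This order turned without control 4 (-0.75 and -0.87) and without Sox9 library 2 (-0.85 and -0.86). *Pou3f2*, an intronless POU gene (ENSMUSG00000095139, chr4:22482780-22488366, minus strand, GRCm38), gave 570, 666 and 754 CPM in controls 1, 2 and 4. In Sox9 libraries 1 to 4 it gave 278, 359, 448 and 361 CPM. Each Sox9 library was below each control, which also held for 18.4% of the protein-coding genes tested, while 19.8% were apart in the higher direction. The group means were 663 ± 92.0 (SD, n = 3) and 361 ± 69.4 CPM (SD, n = 4), a 1.83-fold lower level in the Sox9 group (log2 fold change -0.88, SE 0.15, adjusted p = 0.00104 by edgeR). That call was kept without any single library in turn.

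*Cux2*, a cut-homeobox factor of upper-layer neurons and their progenitors (ENSMUSG00000042589, chr5:121856366-122050102, minus strand), was at 344, 568 and 400 CPM in the controls. The Sox9 libraries gave 180, 269, 267 and 269 CPM. The groups did not overlap, and Sox9 library 1 lay apart below the other Sox9 libraries, which were within 2 CPM of each other. With means of 438 ± 117 and 246 ± 44.2 CPM, the level was 1.78-fold lower in the Sox9 group (log2 fold change -0.83, SE 0.17, adjusted p = 0.00336 by edgeR). The call depended on a single library more than that of *Pou3f2*: without control 2, the highest of all, the log2 fold change was -0.59 (adjusted p = 0.026), and without Sox9 library 4 it was -0.82 (adjusted p = 0.0102). It was also lost, at -0.69 (adjusted p = 0.0168), when at least 10 counts were required in every library.

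For these 2 called genes, and for *Tbr1*, the deep-layer factor whose groups did not overlap, the region around the transcription start is shown, from 250 bases before to 50 bases after it (RefSeq, GRCm38.p6, 5′ to 3′ on the strand of the gene). Capitals mark a match, on either strand, to the SOX motifs AACAAT or ACAAAG, the T-box motif TCACACC, the octamer ATGCAAAT, the CUX motif ATCGAT or the TATA box TATAAA.
Pou3f2, chr4:22488317-22488616, minus strand: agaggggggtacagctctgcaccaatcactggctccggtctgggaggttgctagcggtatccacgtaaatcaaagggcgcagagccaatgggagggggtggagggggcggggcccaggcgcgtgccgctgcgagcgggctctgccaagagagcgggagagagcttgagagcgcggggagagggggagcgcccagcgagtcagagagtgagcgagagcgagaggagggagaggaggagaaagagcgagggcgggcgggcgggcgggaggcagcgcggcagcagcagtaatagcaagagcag
Cux2, first of its 2 listed starts, chr5:122049802-122050101, minus strand: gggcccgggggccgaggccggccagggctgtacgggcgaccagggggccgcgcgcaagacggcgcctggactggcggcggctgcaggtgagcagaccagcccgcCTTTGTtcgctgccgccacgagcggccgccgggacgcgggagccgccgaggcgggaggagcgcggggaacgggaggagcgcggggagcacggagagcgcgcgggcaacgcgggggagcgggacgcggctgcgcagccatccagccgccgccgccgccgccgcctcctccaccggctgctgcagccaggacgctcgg
Tbr1, chr2:61804203-61804502, plus strand: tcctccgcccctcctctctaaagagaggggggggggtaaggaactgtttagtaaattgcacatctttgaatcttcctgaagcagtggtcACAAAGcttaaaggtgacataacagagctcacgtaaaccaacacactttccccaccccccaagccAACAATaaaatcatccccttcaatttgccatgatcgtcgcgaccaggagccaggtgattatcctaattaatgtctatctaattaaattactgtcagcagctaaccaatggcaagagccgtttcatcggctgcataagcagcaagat

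The *Pou3f2* window held none of these letters, and the *Cux2* window held ACAAAG on the opposite strand at position -146 from the start. In the *Tbr1* window, ACAAAG stood at position -161 and AACAAT at position -96. Over all 32851 RefSeq windows of this length, AACAAT was found in 10.7% and ACAAAG in 18.7%, and each was in 2 of the 12 windows of the 9 factors. Beyond those shown, AACAAT was in the second *Tle4* window and TATAAA in that of *Bcl11b*, while the second *Cux2* window held ATCGAT and TATAAA, which share 1 base there. The shares over all windows were 4.0% for TCACACC, 1.7% for ATGCAAAT, 0.9% for ATCGAT and 13.6% for TATAAA, and no window of a factor held the first 2 of these. The windows differed more in base composition. That of *Cux2* was 80.3% G and C with 48 CpG, that of *Pou3f2* 67.7% with 24 CpG and that of *Tbr1* 46.0% with 7 CpG, where the median over all windows was 52.7% and 7 CpG. Such matches are descriptions of the letters only.

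*Cux1*, the paralog of *Cux2* (ENSMUSG00000029705, chr5:136248135-136567490, minus strand), was at 357, 474 and 455 CPM in the controls and at 194, 330, 411 and 294 CPM in the Sox9 libraries. Sox9 library 3 lay above control 1, so that the groups overlapped. The means were 429 ± 62.8 and 307 ± 90.1 CPM, a difference that was not called (log2 fold change -0.48, SE 0.19, adjusted p = 0.0642 by edgeR). Without Sox9 library 1 it was -0.29. Of its exonic length, 1.97% (394 bases) is shared with *Gm16599* on the opposite strand, and 1.55% of its possible 75-base reads occur in that gene, so this small share of *Cux1* counts is uncertain. The 8 other factors shared no such read with another annotated gene.

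*Pou3f3*, the second POU factor (ENSMUSG00000045515, chr1:42695768-42703176, plus strand), differed less. It was at 62.9, 71.7 and 85.5 CPM in the controls and at 54.0, 72.7, 67.4 and 51.0 CPM in the Sox9 libraries. The groups overlapped and no difference was called, the log2 fold change being -0.25 with a 95% interval from -0.56 to 0.05 (adjusted p = 0.224 by edgeR). It was -0.11 without control 4, -0.12 without Sox9 library 4, -0.17 without Sox9 library 1 and -0.04 with cyclic loess scaling and limma-trend. *Pou3f2* and *Pou3f3* are both intronless and closely related, which bears on whether their reads can be told apart. Over 1267 aligned bases of coding sequence they were 77.3% identical, and the longest run of identical bases, in capitals within 60 coding bases around it, was 23 bases, shorter than a 75-base read.
Pou3f2, coding bases 569 to 628, chr4:22487504-22487563, minus strand: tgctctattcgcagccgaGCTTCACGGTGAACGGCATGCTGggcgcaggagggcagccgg
Pou3f3, coding bases 659 to 718, chr1:42697804-42697863, plus strand: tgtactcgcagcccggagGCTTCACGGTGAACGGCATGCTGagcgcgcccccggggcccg

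The ratio of *Pou3f2* to *Pou3f3* CPM, in which gene length cancels between libraries, was 9.06, 9.29 and 8.81 in the controls and 5.14, 4.95, 6.64 and 7.08 in the Sox9 libraries. Each Sox9 ratio was below each control ratio. This ratio was looked at after the values were seen and was given no test. For the paralogs *Cux2* and *Cux1*, the ratio was 0.964, 1.2 and 0.879 in the controls and 0.929, 0.816, 0.649 and 0.916 in the Sox9 libraries, and here the groups overlapped.

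*Rorb*, the nuclear receptor of layer 4 (ENSMUSG00000036192, chr19:18930605-19111196, minus strand), was at 106, 67.7 and 99.3 CPM in the controls. In the Sox9 libraries it was at 69.2, 66.8, 104 and 44.9 CPM. Sox9 library 3 lay within the control range and library 4 far below it. No difference was called (log2 fold change -0.35, SE 0.22, 95% interval -0.78 to 0.08, adjusted p = 0.24 by edgeR). The value moved with single libraries, to -0.13 without Sox9 library 4 and to -0.56 without Sox9 library 3.

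**Figure D2:**
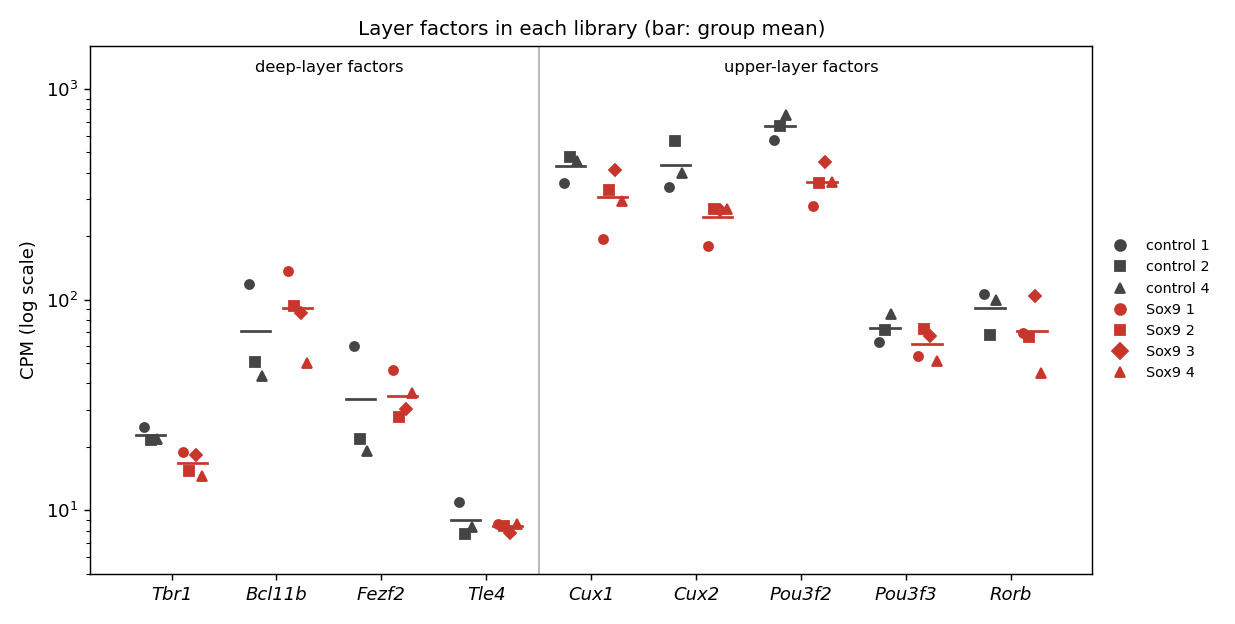
CPM (y axis, log scale) of the 9 layer factors (x axis, deep-layer left, upper-layer right), with 1 point per library, controls in grey and Sox9 libraries in red, and a bar at each group mean. The groups are apart for *Tbr1*, *Cux2* and *Pou3f2*, with the Sox9 libraries lower, and control 1 is well above the other controls for *Bcl11b* and *Fezf2*.

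Of the deep-layer factors, *Tbr1*, the T-box factor of layer 6 (ENSMUSG00000035033, chr2:61802930-61814114, plus strand), was at 24.9, 21.5 and 21.7 CPM in the controls. It was at 18.8, 15.4, 18.3 and 14.5 CPM in the Sox9 libraries, each of them lower than each control. The means were 22.7 ± 1.95 and 16.8 ± 2.14 CPM (log2 fold change -0.43, SE 0.18). The test did not call this difference (adjusted p = 0.0761 by edgeR). The counts behind it were low, from 69 in Sox9 library 4 to 261 in control 1.

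*Bcl11b*, the zinc finger factor also called Ctip2 (ENSMUSG00000048251, chr12:107910403-108003602, minus strand), varied widely within the groups. The controls gave 118, 50.5 and 43.6 CPM, and the Sox9 libraries 137, 93.3, 86.1 and 50.1 CPM. Control 1 lay above 3 of the 4 Sox9 libraries, while controls 2 and 4 stood near the lowest one. Over all libraries the log2 fold change was 0.38 (SE 0.32, 95% interval -0.25 to 1.01) and was not called (adjusted p = 0.382 by edgeR). Without control 1 it was 0.95 (adjusted p = 0.0212), and it was between 0.15 and 0.20 without control 2, control 4 or Sox9 library 1, and 0.64 without Sox9 library 4.

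*Fezf2*, the zinc finger factor that acts upstream of *Bcl11b* in layer 5 neurons (ENSMUSG00000021743, chr14:12342094-12348189, minus strand), had the same outlying control. It was at 59.9, 21.8 and 19.1 CPM in the controls and at 46.4, 27.6, 30.2 and 35.9 CPM in the Sox9 libraries. All Sox9 libraries were above controls 2 and 4 and below control 1. The log2 fold change of 0.05 (SE 0.32, 95% interval -0.57 to 0.68, adjusted p = 0.913 by edgeR) turned to -0.02 with DESeq2 and to 0.75 without control 1 (adjusted p = 0.0249), a value that was again not called.

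*Tle4*, a Groucho-family corepressor of layer 6 neurons (ENSMUSG00000024642, chr19:14448150-14598051, minus strand), was the lowest of the 9. It was at 10.9, 7.73 and 8.34 CPM in the controls and between 7.83 and 8.65 CPM in the Sox9 libraries, from 41 to 114 counts per library. The Sox9 libraries lay within the range of the controls. A log2 fold change of -0.10 (SE 0.24, 95% interval -0.56 to 0.36) was not called (adjusted p = 0.767 by edgeR), and its sign changed without control 1.

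Control 1 differed from the other controls in more than *Bcl11b* and *Fezf2*. Its summed level of 17 pan-neuronal genes was 31586.7 CPM, against 23144.7 and 21856.1 CPM in controls 2 and 4. Its summed level of 10 radial glia genes was 635 CPM, against 1289.8 and 1088.7 CPM. Sox9 library 1, with the highest *Bcl11b* and *Fezf2* and the lowest *Cux1*, *Cux2* and *Pou3f2* of its group, had a pan-neuronal sum of 20073.2 CPM, the lowest of the 7, and a radial glia sum of 473 CPM, the highest of its group. The pan-neuronal sums and their order lean on *Map1b*. This gene alone was at 12650.5, 7925.8 and 5359.3 CPM in controls 1, 2 and 4 and at 5714.6 CPM in Sox9 library 1. The part of these differences in the levels of the layer factors was not tested.

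Deep and upper layers were then compared within each library. The mean log2 CPM of the 5 upper-layer factors was 7.75, 7.93 and 8.02 in the controls and 7.01, 7.43, 7.66 and 7.18 in the Sox9 libraries. That of the 4 deep-layer factors was 5.22, 4.37 and 4.30 in the controls and 5.0, 4.59, 4.63 and 4.44 in the Sox9 libraries. On this scale, the upper-layer mean of each Sox9 library was below that of each control, while the deep-layer means overlapped. The deep minus upper difference in log2 CPM was -3.27 ± 0.64 (SD, n = 3) in the controls and -2.66 ± 0.45 (SD, n = 4) in the Sox9 group. The shift of 0.61 between the groups was close to the pooled SD of 0.53, and the ranges, -3.72 to -2.54 and -3.04 to -2.02, overlapped.

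The shift rested on single libraries in both directions. It was 0.98 without control 1, 0.39 without control 4 and 0.40 without Sox9 library 1. The median log2 fold change was -0.48 for the upper-layer and -0.02 for the deep-layer factors, against -0.06 for all protein-coding genes tested. Every upper-layer factor had an average log2 CPM above 6, where the median of the protein-coding genes was -0.26. Of the deep-layer factors only *Bcl11b* did, and the median of the genes at 6 or less was 0.0974. The part of expression level in this contrast was not tested. With cyclic loess scaling and limma-trend the medians of the factors were -0.26 for the upper and 0.12 for the deep layers. The sign of the latter changed, as it also did with limma-trend on the TMM scaling (0.07). Every upper-layer factor had a log2 fold change below 0 in each of the 19 alternative fits, and so did *Tbr1*, but the values came as close to 0 as -0.03 for *Pou3f3* and -0.04 for *Rorb*. The general shift of the strongly expressed genes stayed in DESeq2 (median -0.344), with DESeq2 size factors in edgeR (-0.287) and with limma-trend on the TMM scaling (-0.266). It was not measured with other filters, FPKM, a replicate block or a library left out. No p was computed for a score over the factors, since these were chosen with results of the data known.

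**Figure D3:**
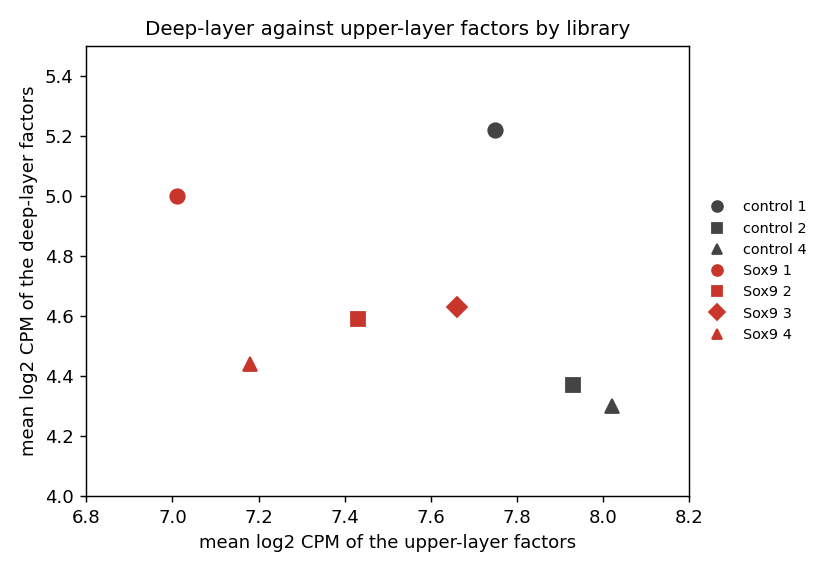
Mean log2 CPM of the 4 deep-layer factors (y axis) against that of the 5 upper-layer factors (x axis), with 1 point per library, controls in grey and Sox9 libraries in red. The Sox9 libraries lie to the left of the controls, at 7.01 to 7.66 against 7.75 to 8.02, while control 1 and Sox9 library 1 are the highest on the deep-layer axis at 5.22 and 5.0.

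Within a library, the deep-layer factors may also be set against each other gene by gene. The ratio of *Fezf2* to *Tbr1* CPM was 2.4, 1.02 and 0.883 in the controls and between 1.65 and 2.48 in the Sox9 libraries. The ratio of *Bcl11b* to *Tbr1* CPM was 4.71, 2.35 and 2.01 in the controls and between 3.46 and 7.29 in the Sox9 libraries. In both, controls 2 and 4 lay below each Sox9 library and control 1 lay among them. These ratios are descriptions and were not tested.

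To order the factors by level, CPM were divided by exonic length. In the controls, *Pou3f2* led with 119 CPM per kilobase of exon, followed by *Cux2* with 43.4, *Cux1* with 21.4 and *Fezf2* with 11 CPM per kilobase. Below them came *Pou3f3* with 9.9, *Bcl11b* with 8.7, *Rorb* with 8.22, *Tbr1* with 4.14 and *Tle4* with 1.58 CPM per kilobase. The neighbours from *Cux1* to *Rorb* in this order overlapped between libraries, while *Pou3f2* and *Cux2*, *Cux2* and *Cux1*, *Rorb* and *Tbr1*, and *Tbr1* and *Tle4* did not overlap.

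The Sox9 group had the same order except that *Bcl11b*, at 11.3 CPM per kilobase of exon, stood before *Pou3f3*, at 8.27. *Pou3f2* was at 64.7, *Cux2* at 24.4, *Cux1* at 15.3 and *Fezf2* at 11.5 CPM per kilobase. *Rorb* was at 6.42, *Tbr1* at 3.05 and *Tle4* at 1.47 CPM per kilobase. Here *Cux2* and *Cux1* overlapped as well, so that *Pou3f2* alone stood apart at the top, and *Tbr1* and *Tle4* at the bottom.

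**Figure D4:**
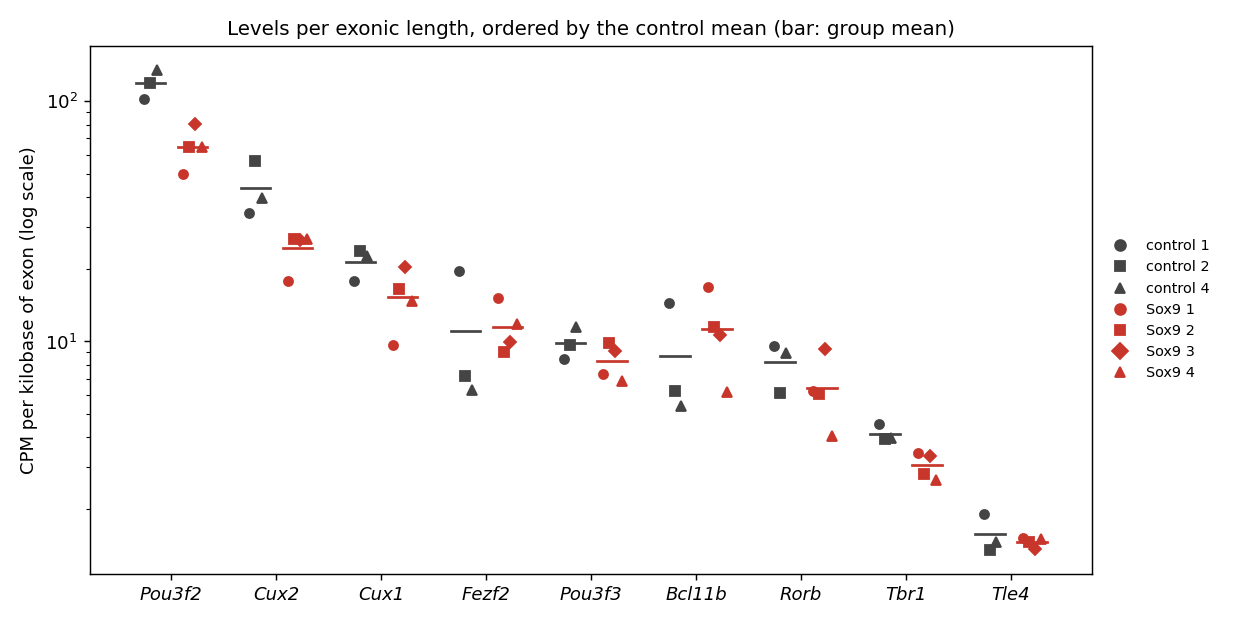
CPM per kilobase of exon (y axis, log scale) of the 9 layer factors (x axis, ordered by the control mean), with 1 point per library, controls in grey and Sox9 libraries in red, and a bar at each group mean. *Pou3f2* lies above the other factors in both groups, at 119 and 64.7 on average, and *Tle4* below them, at 1.58 and 1.47.

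This order is not that of the deposited FPKM, in which 7 of the 9 factors took another place in each group. The length that links the counts of a factor to its FPKM, relative to that of *Pou3f2*, was 57.2 for *Cux1*, equal to the ratio of whole gene spans, where the ratio of exonic lengths was 3.58. For *Cux2* it was 34.7, again the ratio of spans, against 1.8 for exonic lengths. The FPKM of the factors with long introns are thus lowered relative to the intronless *Pou3f2* and *Pou3f3*. *Fezf2* was an exception, with a length ratio of 0.711 between that of exons (0.545) and of spans (1.09). Since a pseudocount weighs more on a lowered value, the log2(FPKM + 1) difference of *Cux2* was -0.37, and that of *Pou3f2* was -0.65.

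Other genes of the deep layers did not move as a group. Over all protein-coding genes tested, the shares called by edgeR were 9.96% higher and 3.88% lower. Of 15 listed, 13 were tested, and by edgeR 1 was called higher and none lower (at an unadjusted p under 0.05, 3 were higher and 2 lower), whereas 6 of the 13 had a positive and 7 a negative log2 fold change. DESeq2 called 2 lower, and cyclic loess scaling 1 lower with limma-trend and 1 with edgeR. The called gene was *Crym*, a thyroid hormone-binding protein, which was at 3.92, 0.174 and 2.64 CPM in the controls and at 312, 275, 105 and 196 CPM in the Sox9 libraries (log2 fold change 6.65, SE 0.52, adjusted p = 7.68e-06 by edgeR). *Sox5*, which controls the timing and migration of deep-layer neurons, was at 366, 172 and 176 CPM in the controls and at 455, 336, 309 and 342 CPM in the Sox9 libraries. Control 1 again stood above the other controls and within the Sox9 range. Its log2 fold change of 0.60 was not called (SE 0.23, adjusted p = 0.0533), but it was called at 1.03 without control 1 (adjusted p = 0.000735) and at 0.51 with no filter on low counts (adjusted p = 0.00273).

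All 13 other upper-layer genes listed were tested, of which 1 was called higher and 1 lower. The shares over all protein-coding genes tested were 9.96% higher and 3.88% lower. *Unc5d*, a netrin receptor of upper-layer neurons and their progenitors, fell from 80.1, 111 and 104 CPM in the controls to 24.9, 59.6, 54.7 and 46.3 CPM (log2 fold change -1.08, SE 0.22, adjusted p = 0.00333 by edgeR). *Rasgrf2*, a guanine nucleotide exchange factor, rose from between 0.521 and 1.82 CPM to between 4.35 and 7.42 CPM (log2 fold change 2.37, SE 0.44, adjusted p = 0.00176). For the list, 7 genes had a positive and 6 a negative log2 fold change, against 5 negative values among the 5 upper-layer factors. Neither call was kept with cyclic loess scaling and limma-trend, where *Unc5d* was at -0.92 (adjusted p = 0.0299) and *Rasgrf2* at 1.58 (adjusted p = 0.0145), or with loess offsets in edgeR, whereas limma-trend on the TMM scaling kept both. That of *Unc5d* was also lost, at -0.98 to -1.02, without control 2, control 4 or Sox9 library 4 (adjusted p = 0.0125 to 0.0153).

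Of 17 paralogs and partners of the layer factors, 15 were tested, and 1 was called higher and 2 lower. Here too the shares over all protein-coding genes tested were 9.96% higher and 3.88% lower. *Eomes* (Tbr2), the T-box paralog of *Tbr1* that marks intermediate progenitors, fell from 25.2, 42.9 and 44.5 CPM in the controls to between 6.14 and 9.75 CPM (log2 fold change -2.25, SE 0.23, adjusted p = 4.87e-05 by edgeR). *Hdac1*, a histone deacetylase that works with corepressors such as the Groucho proteins, fell from between 97.1 and 140 CPM to between 67.6 and 82.7 CPM (log2 fold change -0.67, SE 0.14, adjusted p = 0.00357). *Rora*, the nuclear receptor paralog of *Rorb*, rose from between 2.26 and 3.87 CPM to between 8.88 and 14.4 CPM (log2 fold change 2.10, SE 0.30, adjusted p = 0.000383). *Rorb* and *Rora* thus had values of opposite sign, -0.35 and 2.10. The call of *Hdac1* was lost at -0.42 with cyclic loess scaling and limma-trend (adjusted p = 0.0632) and at -0.44 with loess offsets in edgeR (adjusted p = 0.0505), but not with limma-trend on the TMM scaling. It was also lost, at -0.52 to -0.66, without control 2, control 4 or Sox9 library 1, 3 or 4 (adjusted p = 0.0103 to 0.0304).

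Markers of progenitors and neurons in the sort were compared in the same way, beside 3.88% of all protein-coding genes tested that were called lower. Of 10 radial glia genes, 5 were called lower, among them *Mfge8*, *Vim* and *Slc1a3*, and their summed level ranged from 635 to 1289.8 CPM in the controls and from 317 to 473 CPM in the Sox9 group. Of 8 intermediate progenitor genes, 3 were called lower, *Eomes*, *Btg2* and *Neurod4*, with sums of 403 to 492 and 251 to 285 CPM. *Btg2* is Tis21, the gene that carries CreERT2 in the embryos of both groups. Of 17 pan-neuronal genes, 1 was called lower, the glutamate transporter *Slc17a6*, with overlapping sums of 21856.1 to 31586.7 and 20073.2 to 25662.9 CPM. *Cux2* and *Pou3f2* were called lower in the Sox9 group, and the sums of both progenitor lists were lower there. *Cux1* and *Pou3f3*, which like them occur in part of the progenitors, were not called. Within the Sox9 group, library 3 had the lowest radial glia sum (317 CPM) and the highest *Pou3f2* (448 CPM). Library 1 had the highest radial glia sum (473 CPM), the lowest intermediate progenitor sum (251 CPM) and the lowest *Pou3f2* (278 CPM). With cyclic loess scaling and limma-trend, 3 radial glia, 2 intermediate progenitor and 0 pan-neuronal genes were called lower, and with loess offsets in edgeR 5, 2 and 0. The part of progenitor numbers in the levels of the factors was not tested.

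For other cell types the summed marker levels were at most 90.9 CPM. The share of all protein-coding genes tested that was called higher was 9.96%. All 4 oligodendrocyte precursor genes tested, of 5, were called higher, with sums of 0.61 to 1.39 CPM in the controls and 9.5 to 22.8 CPM in the Sox9 group. *Olig2* had 0 counts in controls 1 and 4, and *Olig1* had 0 in control 4. Of 4 endothelial genes tested, 2 were called higher (*Flt1* and *Kdr*, sums of 2.58 to 8.95 and 13.6 to 33.0 CPM), and of 5 erythroid genes 1 was (*Hba-a2*, sums of 1.82 to 24.2 and 12.6 to 90.9 CPM). Of 3 Cajal-Retzius genes tested, 1 was called higher, the secreted protein gene *Reln* (sums of 6.52 to 11.9 and 12.9 to 22.9 CPM). Cajal-Retzius cells are known to express *Tbr1* as well. None of 3 interneuron genes tested (sums of 4.68 to 5.56 and 8.16 to 15.1 CPM) and none of 4 microglia genes (sums of 7.65 to 25.5 and 9.65 to 40 CPM) was called by edgeR, with 1 and 0 of them at an unadjusted p under 0.05. With cyclic loess scaling and limma-trend, 1 oligodendrocyte precursor gene (*Pdgfra*) and 0 endothelial, erythroid and Cajal-Retzius genes were called, while loess offsets in edgeR called 1 endothelial gene (*Flt1*) and otherwise the same numbers. With loess and limma-trend the interneuron and Cajal-Retzius medians turned from 0.969 to -0.545 and from 1.29 to -0.468. Leaving out 1 library ended the call of *Slc17a6* (control 2 or 4, Sox9 1, 3 or 4, at -0.52 to -0.56, adjusted p = 0.012 to 0.0273), *Reln* (control 1 or 2, Sox9 1 or 3, at 1.14 to 1.29, 0.0167 to 0.0248) and *Hba-a2* (control 1 or 4, Sox9 2 or 3, at 2.43 to 2.80, 0.025 to 0.0379). The *Hba-a2* call was also lost with DESeq2 (adjusted p = 0.0413) and with limma-trend on the TMM scaling (adjusted p = 0.0133). *Olig2* lost its call without control 1 or 4 (adjusted p = 0.0153 and 0.0144), kept it without control 2 or Sox9 2, and did not pass the filter without Sox9 1, 3 or 4. Their part in the levels of the layer factors was not tested.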

How the data were processed

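The authors sorted RFP-positive cells, prepared poly-A cDNA with template switching, which does not mark strand, and aligned reads to GRCm38 with STAR 2.5.2b after bcl2fastq 2.17.1.14, per the labels. The deposited files hold, for each Ensembl gene, whole-number counts and, by the authors' scaling, FPKM. The counting program and its use of strand are not given in the sources used here. Replicate numbers follow the titles. Each sort pooled embryos of several mothers, and whether libraries share mothers is not stated, so p-values measure the spread between these libraries.

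Counts were tested with edgeR 4.0.16 (quasi-likelihood test, TMM scaling, filterByExpr, two-sided, control against Sox9, Benjamini-Hochberg over 16522 genes, call at 0.01) in R 4.3.3. CPM use TMM library sizes. Alternatives used DESeq2 1.42.0, cyclic loess with limma-trend (limma 3.58.1), loess offsets in edgeR, limma-trend on TMM log2 CPM, limma-trend on log2(FPKM + 0.1) or log2(FPKM + 1), other filters, a replicate block, and leaving out each library. Symbols, coordinates and exonic lengths came from GENCODE M21. Counts were also simulated with 200 changed genes, the median dispersion for every gene and no shift with expression level. On these, edgeR called 40% and 50% of genes changed 2-fold down and up, and all 50 genes changed 4-fold in either direction. In the data 1974 protein-coding genes were called, so these shares do not give the power for the layer factors.

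The layer factors and gene lists were chosen with earlier results of these data known. Named were all 9 factors, at most 3 genes per direction past the threshold from each list, and *Sox5*, *Eomes* and *Sox9*. A further gene that the rule names is not reported here. *Tubb3*, *Sox2*, *Map1b* and *Gm16599* were named after their values were seen.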

Additional observations from a re-analysis of the deposited data

Results flagged for a closer look

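*Cux2* in the 4 Sox9 libraries was picked out because 1 library lay far from the rest. Sox9 library 1 was at 180 CPM and the others at 267 to 269 CPM, so that its gap to them took 0.968 of the range of the group, above Dixon's 95% critical value for 4 samples. Without it, the log2 fold change of *Cux2* was -0.68 and was still called (adjusted p = 0.00887 by edgeR).

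The same held, at 0.925 of the range, for *Slc17a6*, the vesicular glutamate transporter, where Sox9 library 2 was at 91.8 CPM and the others at 75.7 to 76.9 CPM. Of 31 genes looked at, 2 were picked out, and chance picks out about 1 in 20 groups.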

How the results depend on the processing

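The count of layer factors called lower was 2. It was 0 with cyclic loess scaling and limma-trend, 0 with loess offsets in edgeR but 2 with limma-trend on the TMM scaling (both chosen after seeing the data), 0 with log2(FPKM + 0.1), 0 with log2(FPKM + 1), 1 with at least 10 counts in every library, and 1 to 2 when each library was left out in turn, the call of *Cux2* being lost without control 2 and without Sox9 library 4. It was 3 with no filter, where *Cux1* was added (adjusted p = 0.000557, edgeR), and 2 with DESeq2. The count called higher was 0 in every fit. The deep minus upper shift of 0.61 ranged from 0.38 to 0.70 over other scalings and without *Rorb* and *Tle4*, and from 0.39 to 0.98 leaving out each library. *Fezf2* changed sign to -0.02 with DESeq2, -0.03 with no filter, -0.16 without control 2, -0.21 without control 4 and -0.09 without Sox9 library 1, and was 0.75 at the other end, without control 1. *Tle4* changed sign to 0.04 with at least 10 counts in every library, 0.05 with FPKM + 0.1, 0.01 with FPKM + 1 and 0.04 without control 1, and was -0.19 without control 2. The cause of these changes was not tested. In the order of levels, 2 factors of the control group and 0 of the Sox9 group moved with exonic lengths of the basic transcript set, an alternative chosen after seeing the data.

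Replicate numbers differ between titles and descriptions, and same-numbered libraries did not deviate together (correlations of -0.036, 0.118 and -0.005 by title and -0.036, 0.118 and 0.017 by description). With a replicate block, 3 factors were called lower by the title numbers (*Cux1* added, adjusted p = 0.00551) and 2 by the description numbers. Of the other genes, the title block ended the calls of *Btg2*, *Hdac1*, *Flt1*, *Kdr*, *Olig1*, *Olig2*, *Reln* and *Slc17a6* (adjusted p = 0.0115 to 0.028), and the description block those of *Olig2* (0.0155) and *Slc17a6* (0.0104), while it called *Sox5* at 0.70 (0.00754). The lowest counts, 41 to 114 for *Tle4*, limit the precision for that gene.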
